A study of Homo sapiens with 6 samples.

Results

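The genes described here encode the constitutive subunits of the 26S proteasome, the particle that degrades ubiquitin-tagged proteins. They were chosen by symbol alone, as the rows of the gene table named PSMA1 to PSMA7, PSMB1 to PSMB7, PSMC1 to PSMC6 or PSMD1 to PSMD14, which gave 34 genes of 57820 rows. Of 36 rows with such a symbol, 2 repeated PSMA1 or PSMA2, and the row with the larger total was kept. All 34 genes passed the filter on low counts, which kept 15605 genes in all.

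The proteasome is built from a barrel-shaped core particle and a regulatory particle that caps it. In the core, outer rings of alpha subunits gate the entrance and inner rings of beta subunits hold the protease sites, of which PSMB5, PSMB6 and PSMB7 carry the chymotrypsin-like, caspase-like and trypsin-like activity. The regulatory particle has a base, whose ATPases (PSMC genes) unfold the substrate, and a lid that includes the deubiquitinase PSMD14. Cells exposed to interferon replace the 3 catalytic subunits with PSMB8, PSMB9 and PSMB10, and cells short of proteasome activity raise the whole set of subunit genes through the transcription factor NFE2L1. The comparison therefore asks how the messenger RNAs of this complex stood after knockdown of STAG2, a subunit of the cohesin ring that organises chromosome loops.

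M14 is an established human melanoma line. All 6 libraries came from M14 cells that carried a doxycycline-inducible shRNA against STAG2 and were grown under puromycin. The 3 KD libraries came from cells given doxycycline for 5 days, and the 3 WT libraries from the same kind of cells without doxycycline, so WT cells also carried the shRNA construct. There was 1 shRNA and no library with doxycycline alone, so knockdown and doxycycline cannot be told apart. The study describes its replicates as biologically independent, the samples' labels do not name separate cultures, and p-values measure the spread between these libraries.

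STAG2 itself had 66.5, 34.8 and 28.8 CPM (counts scaled to library size) in WT replicates 1 to 3 and 16.0, 7.31 and 6.69 CPM in KD replicates 1 to 3. The groups did not overlap, and STAG2 was lower in KD by −2.12 on the log2 scale (SE 0.43, adjusted p = 0.0342, edgeR). The adjusted p of STAG2 rose to between 0.0652 and 0.168 when WT replicate 2 or 3 or KD replicate 2 or 3 was left out. Totals ran from 24895998 to 35181733 expected counts a library, so that 3 counts corresponded to between 0.087 and 0.112 CPM. Replicate 1 stood apart in both conditions. The share of mitochondrial counts was 5.07% in WT replicate 1 and 2.12 to 2.94% elsewhere, and the pigment gene PMEL had 3370 and 1254 CPM in WT and KD replicate 1 against 358 to 684 CPM in the other libraries. All 7 melanocyte markers looked at were present, with a median change of −1.01 on the log2 scale, and 6 of them had changes below 0. TYR went the other way, at 0.35 (edgeR adjusted p = 0.792), or 0.51 with a term for replicate number (0.129). Without both libraries numbered 1 its change was 0.79 (0.0272). Of the 7, 1 (S100B) was called lower in KD, where 0.839% of all tested genes were. With a term for replicate number 5 were called lower, where 9.52% of genes were called in either direction. With 1 library left out the adjusted p of S100B ran from 0.00903 to 0.0865. Of 4 markers of other cell types, KRT5, PTPRC and CD3E had at most 0.583 CPM, and KRT14 had 0.262, 3.94 and 3.78 CPM in WT and 0.787, 0.372 and 0.857 CPM in KD (adjusted p = 0.431). The part of these markers in the results below was not tested.

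None of the 34 subunit genes changed past an adjusted p of 0.05. Their fitted differences were small and lay on both sides of 0, with 15 above it and 19 below, and the KD over WT change ran from −0.50 (PSMB3) to 0.27 (PSMA5) on the log2 scale. The background in this comparison was 2.59% of tested genes called (1.75% higher and 0.839% lower in KD), which was 404 genes. With a term for replicate number 9.52% of genes were called, and again 0 of the 34. Among the 8337 genes at least as abundant as the lowest subunit gene, 4.09% were called, or 15.1% with the replicate term. DESeq2 and limma-voom, whose backgrounds were 6.27% and 2.64%, also called 0, and DESeq2 with the replicate term called 1 (PSMB3, lower, adjusted p = 0.0111, background 14.2%, or 6.89% lower). At an unadjusted p under 0.05 edgeR listed 1 subunit gene, PSMB3, where 14.8% of all genes were listed, and with the replicate term it listed PSMB3 and PSMB4, where 22.9% were.

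The median change was −0.05 for the subunit genes and −0.03 for all tested genes. The typical size of a change, as a median of absolute log2 values, was 0.10 for the subunit genes and 0.38 for all tested genes. It was 0.28 for the 8337 genes at least as abundant as the lowest subunit gene. That floor was 12.4 CPM (PSMC6), and these genes were not matched to the subunit genes in abundance. Of those 8337 genes 26.1% had a change larger in size than that of any subunit gene. What the data leave possible for each gene is given by its 95% interval, not adjusted for the number of genes. All 34 intervals lay within a 2-fold change in either direction. Only 13 lay within a 1.5-fold change, and 29 did so with the replicate term, the exceptions being PSMA5, PSMB3, PSMB4, PSMC6 and PSMD10.

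**Figure D1:**
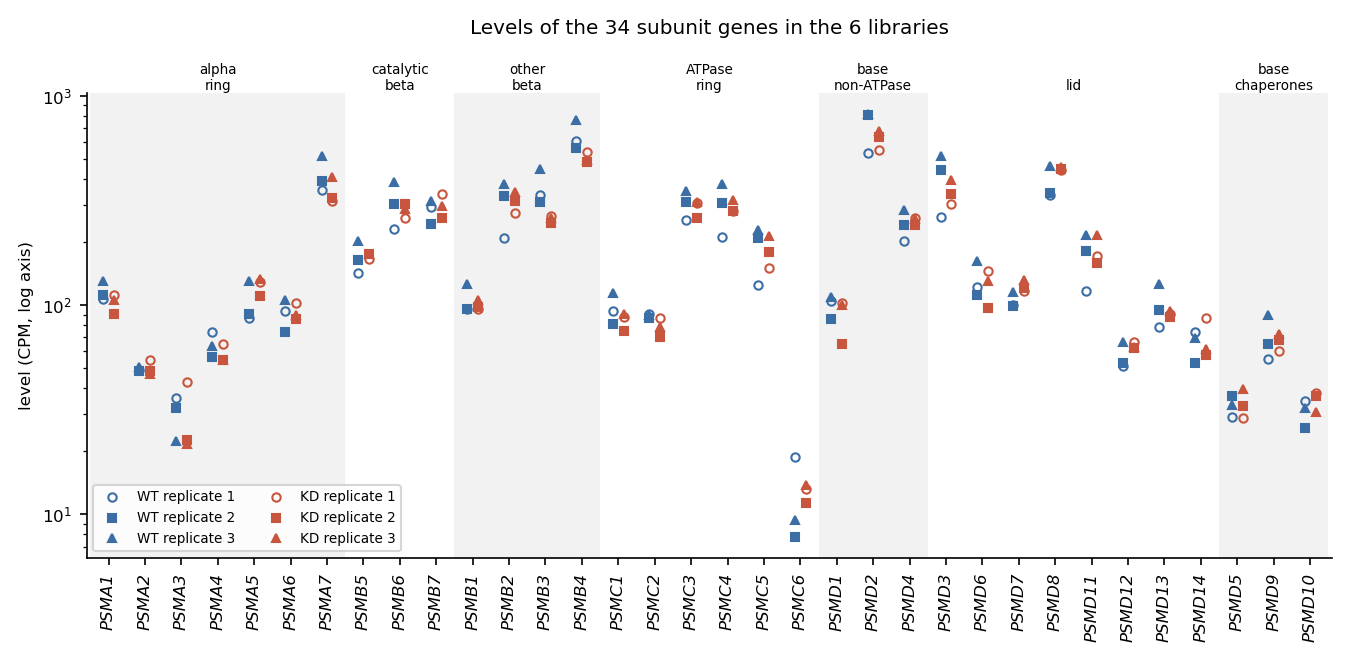
Level of each subunit gene in CPM (log axis) in the 3 WT (blue) and 3 KD (red) libraries, with a marker shape for each replicate number and genes grouped by their place in the complex. The WT and KD points of most genes overlap. PSMB3 and PSMB4 have every KD point below the WT points, PSMD7 has every KD point above them, and PSMC6 is the lowest gene.

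Summed over the 34 genes, the level was 5613, 6460 and 7913 CPM in WT and 6148, 5941 and 6578 CPM in KD. The KD libraries lay within the WT range, and the means of 6662 ± 1160 and 6222 ± 325 CPM (SD, n = 3) gave a KD over WT ratio of 0.934. These genes took between 0.564 and 0.745% of all counts in a library. The 14 core particle genes summed to 3060 ± 508 CPM in WT and 2735 ± 107 CPM in KD, a ratio of 0.894. The 17 genes of the regulatory particle, without the 3 assembly chaperones, gave 3468 ± 670 and 3351 ± 224 CPM, a ratio of 0.966. In bulk RNA a lower sum cannot be split into fewer molecules per cell and a different mix of cells.

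In the alpha ring, whose 7 subunits form the gate of the core, 0 genes were called and changes ran from −0.27 to 0.27. PSMA5 had 86.8, 90.2 and 131 CPM in WT and 129, 109.8 and 133 CPM in KD. Its KD libraries were all above the lower WT pair and around the highest WT library, and the fold of 1.21 had an interval of 0.867 to 1.69. PSMA7, the most abundant alpha gene, had 356, 392 and 517 CPM in WT and 313, 325 and 408 CPM in KD. The groups overlapped, and its fold of 0.827 (interval 0.591 to 1.16) had an adjusted p of 0.659. The other 5 alpha genes had changes between −0.18 (PSMA1) and 0.02 (PSMA6).

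The 3 catalytic genes summed to 760.4 ± 127 CPM in WT and 755 ± 11.7 CPM in KD, a ratio of 0.993, with 0 called. PSMB5 (chr14:23485752-23504439, GRCh37), the target of the drug bortezomib, had 142, 164 and 203 CPM in WT and 166, 176 and 175 CPM in KD. Every KD library lay inside the WT range, and its fold was 1.02 with an interval of 0.752 to 1.37. PSMB6 (chr17:4699439-4701797) had 229.9, 303 and 387 CPM in WT and 261, 305 and 287 CPM in KD, again inside the WT range, with a fold of 0.928 (0.655 to 1.31). PSMB7 (chr9:127115744-127177723) had 295, 243 and 315 CPM in WT and 337, 261 and 297 CPM in KD. These overlapped, with replicate 1 above replicate 2 in both conditions, and the fold was 1.05 (0.772 to 1.43).

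The 4 other beta genes, which build the inner rings without a protease site of their own, held the largest differences. PSMB3 (chr17:36908994-36920478) had 336, 310.1 and 446 CPM in WT and 266, 246 and 261 CPM in KD. All KD libraries were below all WT libraries, and the KD values were close together. The difference was −0.50 on the log2 scale (SE 0.20, fold 0.708, interval 0.518 to 0.969), but the adjusted p was 0.285, and 0.0724 with the replicate term. PSMB4 (chr1:151372036-151374413) had 608, 566 and 768 CPM in WT and 539, 484 and 494 CPM in KD. Its groups did not overlap either, with the highest KD library just under the lowest WT library, and the fold was 0.781 (0.573 to 1.06, adjusted p = 0.468). PSMB4 and PSMD7 are described because their groups did not overlap, a choice made after their values were seen. Non-overlap was found in 22.3% of all tested genes, 10.5% lower in KD and 11.8% higher, against 3 of the 34 subunit genes. PSMB2 had 209, 332 and 378 CPM in WT and 275, 313 and 348 CPM in KD, with a change of 0.03.

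Within the ATPase ring, the motor that pulls substrates into the core, 0 of 6 genes were called. PSMC1 had 93.4, 80.9 and 114 CPM in WT and 88.0, 75.5 and 90.6 CPM in KD. Its groups overlapped, with a fold of 0.883 (0.650 to 1.2). PSMC6 was the least abundant subunit gene, at 18.7, 7.77 and 9.39 CPM in WT and 13.2, 11.3 and 13.7 CPM in KD. WT replicate 1 was the highest library and WT replicate 2 the lowest. The interval, 0.605 to 1.89, was the widest of the 34.

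The 3 base subunits without ATPase activity include PSMD2, the scaffold that docks shuttle factors, and PSMD4, a ubiquitin receptor. PSMD2 had 534, 807 and 818 CPM in WT and 552, 633 and 679 CPM in KD. WT replicate 1 was below every KD library and the other WT libraries were above them, and the fold was 0.863 (0.608 to 1.22). PSMD4 had 203, 242 and 284 CPM in WT and 260.1, 242 and 257 CPM in KD, all KD values inside the WT range, with a fold of 1.04 (0.771 to 1.41).

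In the lid, 5 of 8 genes had changes above 0 and 3 below, with 0 called. PSMD14 (chr2:162164936-162268228), the lid deubiquitinase that removes ubiquitin before the substrate enters, had 74.6, 52.8 and 69.3 CPM in WT and 86.7, 57.4 and 61.9 CPM in KD. Its groups overlapped and replicate 1 was the highest library of both, with a fold of 1.05 (0.735 to 1.49). PSMD8, a structural lid subunit, had 335, 344 and 461 CPM in WT and 441, 445 and 454 CPM in KD. The KD libraries were above WT replicates 1 and 2 and below WT replicate 3, and the fold was 1.18 (0.864 to 1.60). PSMD7, the inactive partner of PSMD14, had 100.4, 99.0 and 115 CPM in WT and 117, 120.4 and 131 CPM in KD. It was the 1 subunit gene whose KD libraries were all above the WT libraries, at a fold of 1.17 (0.893 to 1.54, adjusted p = 0.645). PSMD3, another structural lid subunit, had 264, 441 and 514 CPM in WT and 304, 339.6 and 397 CPM in KD. Replicate 1 was the lowest library in both conditions, the groups overlapped, and the fold was 0.854 (0.570 to 1.28).

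PSMD5, PSMD9 and PSMD10 are chaperones that help to assemble the base and leave the finished particle. PSMD10 had 34.7, 25.8 and 32.0 CPM in WT and 37.9, 36.6 and 30.8 CPM in KD. KD replicate 3 lay inside the WT range and the other KD libraries above it, with a fold of 1.14 (0.815 to 1.59). PSMD9 had 54.9, 64.7 and 89.6 CPM in WT and 60.6, 68.3 and 72.8 CPM in KD. All of its KD libraries were inside the WT range, and the fold was 0.964 (0.684 to 1.36).

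**Figure D2:**
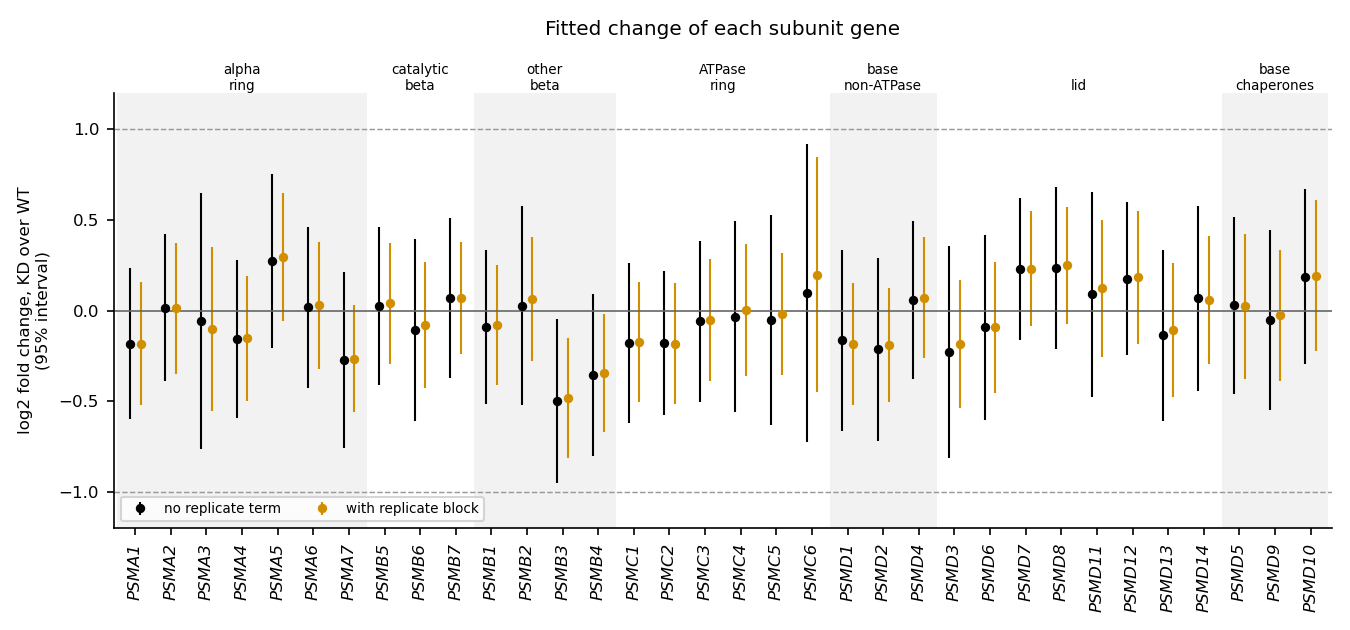
Fitted log2 change, KD over WT, of each subunit gene with its 95% interval, from edgeR without (black) and with (orange) a term for replicate number. Dashed lines mark a 2-fold change. All 34 intervals lie between these lines in both fits, and PSMB3 is the lowest point at −0.50 (−0.48 with the term).

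Levels were next compared between subunits per kilobase of each gene's canonical transcript (GENCODE annotation on GRCh37), with the caveat that the isoforms used by these cells are not known. PSMB4 had the highest WT level, 705 ± 116 CPM per kb (SD, n = 3), followed by PSMB3 at 478 ± 94.4 and PSMA7 at 438 ± 87.6 CPM per kb. PSMC6 was lowest at 5.53 ± 2.73 CPM per kb, under PSMD5 at 9.78 ± 1.14 and PSMD12 at 13.0 ± 1.89 CPM per kb. The subunits are assembled in fixed proportions, yet their transcripts spanned 128-fold, or 72.1-fold without PSMC6. Most neighbours in this order could not be separated: in 29 of 33 neighbouring pairs the WT libraries overlapped. PSMB4 stood clear of PSMB3, and the other breaks were between PSMA2 and PSMC2, PSMD10 and PSMA4, and PSMD12 and PSMD5. By group, the median level per kb was 298 CPM for the other beta genes, 289 for the catalytic beta genes, 184 for the base subunits without ATPase activity, 86.8 for the ATPases, 63.4 for the lid, 34.4 for the alpha ring and 21.0 for the chaperones. Ranges within groups were wide and overlapped. They were 69.2 to 705 for the other beta genes, 5.53 to 198 for the ATPases, 13.0 to 250 for the lid and 14.8 to 438 for the alpha ring. The order of the genes was nearly the same in KD, with no gene moving by more than 3 places (Spearman's rho across the 34 genes 0.993). The level per kb was lower for longer transcripts (rho −0.645), a description across genes whose level was itself divided by length.

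Levels of the subunit genes were also compared between replicate numbers. The replicate 1 difference, taken as the log2 level of replicate 1 minus the mean of replicates 2 and 3, had the same sign in WT and KD for 23 of 34 genes. Averaged over the conditions it was larger in size than the difference between conditions for 26. It sets 1 library against 2 within a condition, while the condition difference sets 3 against 3. The former is therefore the noisier, and a majority can arise without any effect of replicate number. Replicate 1 was the lowest library in both conditions for 10 genes, among them PSMB5, PSMB6, PSMD2 and PSMD3, and the highest in both for 5, which were PSMA3, PSMA4, PSMC2, PSMD10 and PSMD14. Counts of this kind were not taken over all tested genes, so they have no background here. In WT the replicate 1 difference ran from −0.85 (PSMD3) to 1.13 (PSMC6).

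The replicate 1 difference varied with the GC content of the transcript, which ran from 36.38% (PSMC6) to 58.55% (PSMD3). Across the 34 genes Pearson's r was −0.611 in WT and −0.455 in KD (Spearman's rho −0.60 and −0.463). Across 8196 genes it was −0.494 and −0.312, so the subunit genes were not alone in it, and genes of 1 library share its depth and preparation. The change between KD and WT had an r of −0.368 with GC content over the subunit genes and 0.064 over the 8196 genes. Without both libraries numbered 1, the median change of the subunit genes was −0.13, with 0 called. The part of GC content in these values was not tested.

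**Figure D3:**
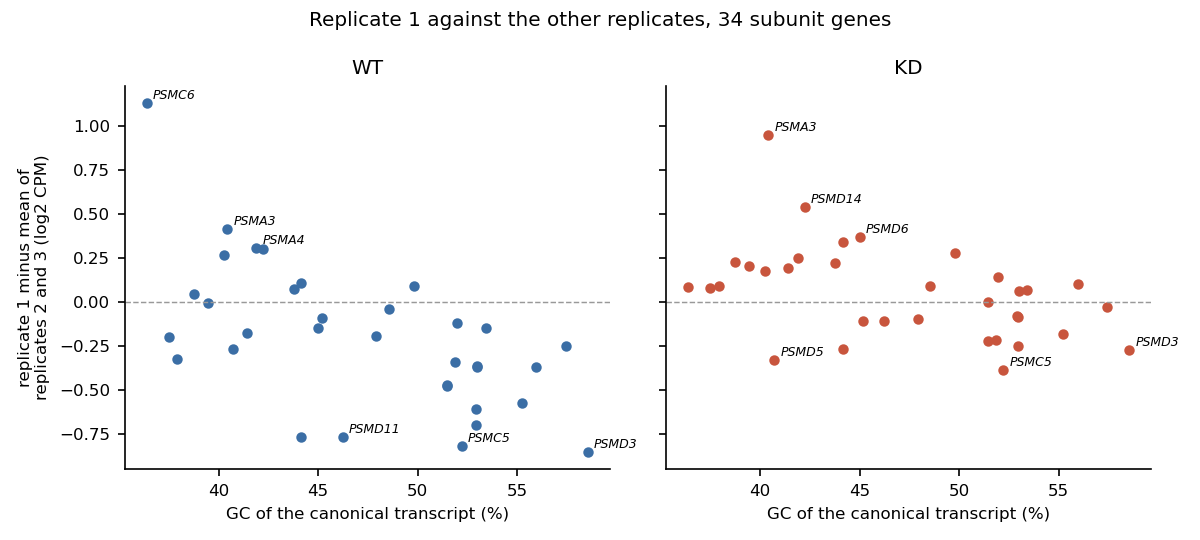
Difference of replicate 1 from the mean of replicates 2 and 3 (log2 CPM) against the GC content of the canonical transcript (percent), for the 34 subunit genes in WT (left) and KD (right). Points fall from left to right in both panels, with PSMC6 at 1.13 and PSMD3 at −0.85 at the ends of the WT panel.

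The interferon-inducible catalytic subunits, which take the places of the constitutive ones, were looked at beside them, and 1 of the 3 tested was higher in KD. PSMB9 (chr6:32811913-32827628) had 38.9, 72.9 and 106 CPM in WT and 254, 193 and 244 CPM in KD. Each KD library was above every WT library, and PSMB9 rose 3.16-fold (log2 1.66, SE 0.33, adjusted p = 0.0321). The call of PSMB9 held with the replicate term (adjusted p = 0.00242) and without both libraries numbered 1 (0.019). It was lost without WT replicate 2 (0.116) and without KD replicate 1 (0.0865), 2 (0.0884) or 3 (0.129). PSMB8 (chr6:32808494-32812456) had 104, 124 and 189.8 CPM in WT and 246, 227 and 274 CPM in KD. Its groups did not overlap either, and its fold of 1.79 (1.22 to 2.62) had an adjusted p of 0.13, or 0.00882 with the replicate term. Without that term DESeq2 gave PSMB8 an adjusted p of 0.0275 and limma-voom 0.0831. PSMB10 had 60.2, 97.6 and 119 CPM in WT and 105, 87.1 and 115 CPM in KD, which overlapped, with a fold of 1.11 (0.742 to 1.65). PSMB8 and PSMB9 overlap on opposite strands and the strand setting of the counting was not given in the sources used here, so reads from the overlap may be shared between them. In the annotation PSMB9 also overlaps PSMB8-AS1 on the same strand and TAP1 on the opposite strand. The thymus subunit PSMB11 and the testis subunit PSMA8 did not pass the filter on low counts.

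Each inducible subunit was then set against the constitutive subunit it replaces within the same library, as the log2 ratio of their counts. For PSMB9 to PSMB6 the ratio was −2.56, −2.05 and −1.87 in WT and −0.04, −0.66 and −0.24 in KD. All KD ratios were above all WT ratios, by 1.85 on average, which is 3.6-fold. For PSMB8 to PSMB5 it was −0.45, −0.40 and −0.10 in WT and 0.57, 0.37 and 0.64 in KD, again without overlap, and the difference was 0.85 or 1.80-fold. Both differences had the smallest p that an exact two-sided permutation test of 3 libraries against 3 can give, 0.1 (adjusted over the 3 ratios, 0.15), so the design could not bring them under 0.05. PSMB10 to PSMB7 was −2.29, −1.32 and −1.40 in WT and −1.69, −1.58 and −1.37 in KD, with a difference of 0.13 (exact p = 0.9) that changed sign without WT replicate 1. Per length of transcript, PSMB9 made up 15.5 ± 3.15% of the PSMB9 and PSMB6 messages in WT and 39.6 ± 5.21% in KD, and PSMB8 made up 42.7 ± 3.25% and 57.2 ± 2.41% of its pair (SD, n = 3). The constitutive partners PSMB5 and PSMB6 had folds of 1.02 and 0.928 on their own.

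**Figure D4:**
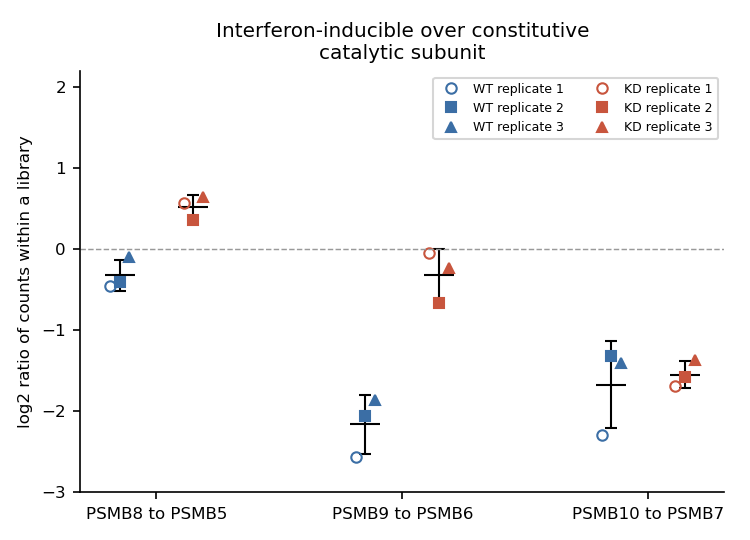
Log2 ratio of counts of each interferon-inducible catalytic subunit to the constitutive subunit it replaces, for the 3 WT (blue) and 3 KD (red) libraries, with the mean and SD as black bars. KD points lie above all WT points for PSMB8 to PSMB5 and PSMB9 to PSMB6 and overlap them for PSMB10 to PSMB7.

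Of the 9 listed genes that control the subunit genes or modify their regulators, 1 was called. NFE2L1 (chr17:46125691-46138907), the transcription factor that raises subunit genes when proteasome activity falls short, had 461, 564 and 540.1 CPM in WT and 883, 1037 and 932 CPM in KD. The groups were far apart relative to their spread, and NFE2L1 rose 1.82-fold (log2 0.87, SE 0.19, adjusted p = 0.04999, or 0.0027 with the replicate term). That call sat at the threshold in edgeR. Leaving out any 1 library gave adjusted p between 0.0617 and 0.244, DESeq2 size factors gave 0.062 and unrounded counts 0.0504. The call held in DESeq2 (adjusted p = 0.000353), in limma-voom (0.034) and in edgeR without both libraries numbered 1 (0.0213). The small MAF proteins pair with NFE2L1 on DNA, and MAFF, MAFG and MAFK, named after their values were seen, all had higher levels in every KD library than in any WT library. Such non-overlap was found in 11.8% of all tested genes and in 4 of the 9 listed genes, which were these and NFE2L1. The groups of NFE2L2, KEAP1, BACH1, DDI2 and NGLY1 overlapped. MAFF had 224, 251 and 296.5 CPM in WT and 358, 302 and 326.5 CPM in KD, with an adjusted p of 0.456, or 0.189 with the replicate term. MAFG had 91.4, 92.3 and 98.1 CPM in WT and 147, 134 and 143 CPM in KD, with an adjusted p of 0.127, or 0.0298 with the replicate term. MAFK had 35.6, 60.9 and 67.8 CPM in WT and 77.7, 108 and 122.9 CPM in KD, with an adjusted p of 0.142, or 0.00438 with the replicate term. Without that term the adjusted p for MAFF, MAFG and MAFK was 0.437, 0.0382 and 0.0469 in DESeq2. In limma-voom it was 0.391, 0.116 and 0.113. NFE2L2, the relative of NFE2L1 that responds to oxidants, had a fold of 1.01 (0.699 to 1.45).

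NFE2L1 and small MAF proteins bind the antioxidant response element, whose core is TGACNNNGC, with N for any base. The core was searched on both strands in the 250 bases before each start of transcription (RefSeq promoter sequences, GRCh38 table). An entry was found for 29 of the 34 genes, and 7 of them, or 24.1%, held the core, against 13.2% of 27305 genes. The sites are shown because they name the subunit genes at which the factor could be looked for. They run 5′ to 3′ on the strand that reads the core, which is in capitals, and were placed on GRCh37 by exact match.
PSMA4, chr15:78832992-78833020, plus strand: gtgggcacgaTGACTCTGCaccgcctcct
PSMB3, chr17:36908880-36908908, plus strand: gcctccgtttTGACTTTGCaaccaaacta
PSMC5, chr17:61905014-61905042, minus strand: agggcggcgcTGACACAGCagatccggtc
PSMD3, chr17:38137013-38137041, plus strand: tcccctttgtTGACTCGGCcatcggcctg
PSMD5, chr9:123605316-123605344, minus strand: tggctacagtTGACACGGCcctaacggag
PSMD9, chr12:122326584-122326612, plus strand: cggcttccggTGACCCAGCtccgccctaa
PSMD9, chr12:122326537-122326565, minus strand: gcgcctgtggTGACCCGGCaggagtagcg
PSMD12, chr17:65362840-65362868, minus strand: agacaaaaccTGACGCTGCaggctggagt

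The PSMA4 and PSMC5 sites precede a later start and lie inside the annotated gene, and the others lie upstream of it. The 7 genes with the core had changes from −0.50 (PSMB3) to 0.18 (PSMD12), 2 above 0 and 5 below, with a median of −0.05. The 22 genes with an entry and no core had 11 above and 11 below, with a median of −0.01. None of either group was called, and a match is a stretch of letters, not evidence of binding.

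The core of the interferon-stimulated response element, searched in the same way, was found before 2 subunit genes, which is 6.9% against 3.71% of all genes. The sites, with the core in capitals, are shown because the inducible subunits answer to interferon while these genes belong to the constitutive set.
PSMA4, chr15:78832497-78832526, plus strand: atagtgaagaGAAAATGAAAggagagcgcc
PSMB4, chr1:151371971-151372000, plus strand: tcgtctacagGAAAAAGAAAgaaatgacac

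Both sites lie upstream of the annotated gene. PSMA4 and PSMB4 had changes of −0.16 and −0.36 on the log2 scale, neither past the test. The CCAAT box stood before 15 of the 29 genes (51.7%, against 37% of all genes), and the palindrome bound by NRF1, the regulator of respiratory genes, stood before PSMA4 alone (3.45% against 1.28%).

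Among the remaining genes that serve the proteasome edgeR called 0. The 2 subunits whose symbols fall outside the PSM names, ADRM1 (a ubiquitin receptor) and SHFM1 (a small lid subunit), had changes of −0.25 and −0.15, neither called. None of the 6 further assembly factors was called, and POMP, the chaperone that closes the beta rings, had a fold of 1.02 (0.734 to 1.41). The 5 activators and inhibitors all had changes above 0, with 0 called. Among them PSME2, the partner of PSME1 in the interferon-inducible cap, had a fold of 1.36 (0.910 to 2.04), and PSMF1, an inhibitor of the core, had 1.28 (0.932 to 1.75). With the replicate term in edgeR PSME2 had a fold of 1.39 (1.10 to 1.77, adjusted p = 0.0829). DESeq2 with that term called PSME2 higher (adjusted p = 0.0441), where 14.2% of all genes were called. Of 18 shuttle factors, associated enzymes and ubiquitin genes, 9 had changes above 0 and 9 below, with 0 called in either fit.

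**Figure D5:**
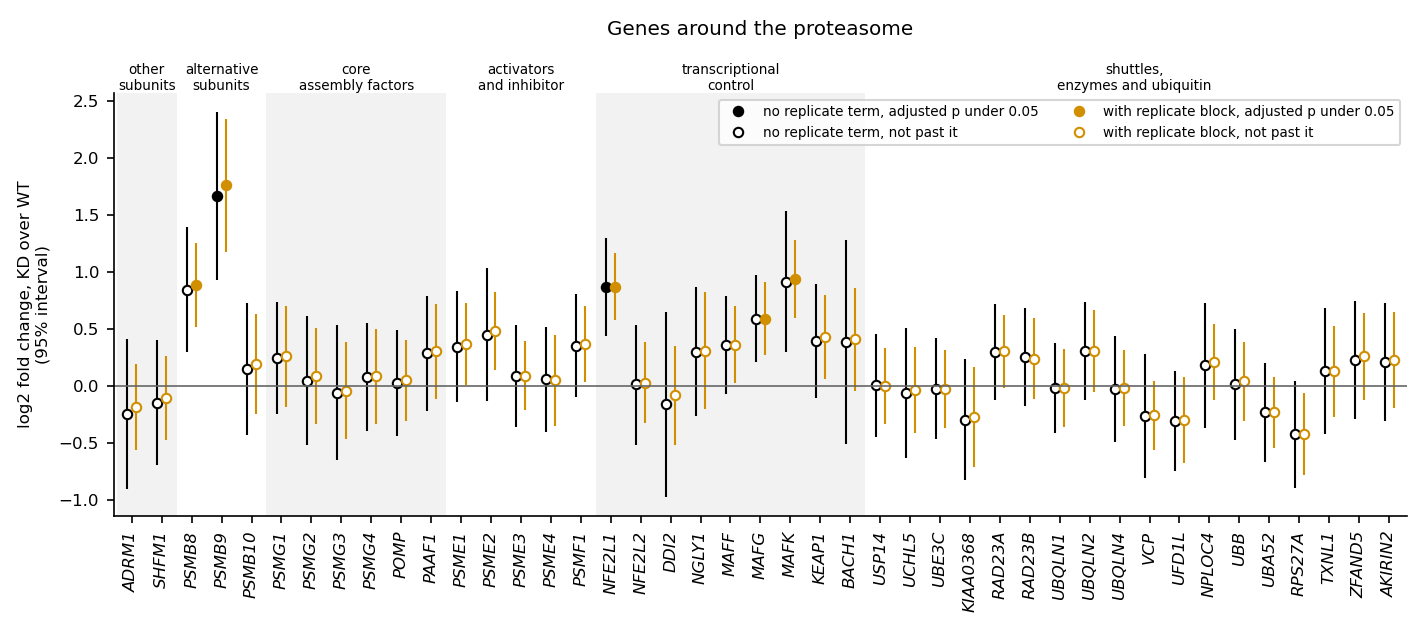
Fitted log2 change, KD over WT, with its 95% interval for genes around the proteasome, from edgeR without (black) and with (orange) a term for replicate number, where filled points pass an adjusted p of 0.05. PSMB9 and NFE2L1 pass in both fits, and PSMB8, MAFG and MAFK pass with the replicate term.

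The 34 genes lie on 15 chromosomes, with 6 on chromosome 17 (PSMB3, PSMB6, PSMC5, PSMD3, PSMD11 and PSMD12) and 5 on chromosome 14 (PSMA3, PSMA6, PSMB5, PSMC1 and PSMC6). In the annotation 9 overlapped another gene on the same strand and 13 a gene on the opposite strand. Near-identical copies are a further source of uncertainty, and 29 rows were pseudogenes of these genes, of which 5 had any count. The second PSMA2 row had 1.93 to 6.43 CPM, against 46.8 to 54.6 CPM in the row kept. Adding the repeated rows and pseudogenes to their parents moved no subunit gene by more than 0.042 on the log2 scale (PSMA2) and left 0 called.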

How the data were processed

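Gene expression was measured by poly(A) RNA-seq with a directional kit and short single reads. The authors mapped reads to hg19 with STAR and deposited one table of RSEM expected counts (estimated counts per gene) for the 6 libraries; the annotation version and the strand setting were not given in the sources used here. Counts were rounded and tested with edgeR 4.0.16 (R 4.3.3; filterByExpr, TMM scaling, quasi-likelihood F test, KD against WT, no replicate term), with Benjamini-Hochberg adjustment over all 15605 genes kept and a threshold of 0.05. Intervals are 95% and floors are 3 counts, both covering only what the model or counting gives. CPM used TMM library sizes. Ratios used a prior of 0.5 counts and an exact permutation test.

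Same-numbered WT and KD libraries deviated together over 8932 genes with a mean of at least 10 CPM (r = 0.607, 0.479 and 0.38). The numbers, taken from the samples' titles, were therefore treated as pairs in an alternative fit with a replicate block. Replicates 2 and 3 also deviated together across numbers (r = 0.305 for WT 2 with KD 3, 0.198 for WT 3 with KD 2). Deviations were from the mean of 3 libraries, so a replicate 1 that stands apart in both conditions itself makes replicates 2 and 3 correlate. DESeq2 1.42.0, limma 3.58.1 (voom), other scalings and filters and leaving libraries out were also tried. The scripts were tested on simulated data. DESeq2 with a block and the summing of copies were added after the data were seen.

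The rule for genes named with values took PSMB5, PSMB6, PSMB7, PSMD14, the highest and lowest change of each subcomplex, and pathway genes called. Other genes given with values were added after their values were seen, as examples of their lists. Part of the lists is not reported here. The members and lists were chosen with earlier results of these data known.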

Additional observations from a re-analysis of the deposited data

How the results depend on the processing

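The number of subunit genes called stayed at 0 higher and 0 lower under every alternative run, except that DESeq2 with the replicate block called 1 lower (PSMB3). The median subunit change ran from −0.15 to 0.07 with 1 library left out and so had no stable sign, and the summed level ratio ran from 0.866 to 1.03. The count over all genes, 404, moved to 979 with DESeq2, 1103 with no filter on low counts, 1486 with the replicate block, 2223 with DESeq2 and the block, 757 without both libraries numbered 1 and 137 at an adjusted p under 0.01, and with 1 library left out the lowest was 121 and the highest 531. The PSMB10 to PSMB7 difference ran from −0.19 (without WT replicate 1) to 0.30 with 1 library left out and was −0.11 without both libraries numbered 1. With 1 library left out the STAG2 change ran from −2.63 to −1.68, and its call was lost without WT replicate 2 (−2.26) or 3 (−2.35) and without KD replicate 2 (−1.94) or 3 (−1.92). Apart from PSMB8, MAFG and MAFK and the melanocyte markers in the report, the replicate block changed no call in edgeR on a gene or list described here. DESeq2 without the block also called PSMB8, MAFG and MAFK higher (adjusted p = 0.0275, 0.0382 and 0.0469). With limma-voom none of them was called (adjusted p = 0.0831, 0.116 and 0.113). Over the 77 subunit and pathway genes tested (STAG2 and the markers not counted), 15 values under an alternative became calls, 13 lost one and none past the threshold reversed. Where a call changed, the cause was not tested. With 3 libraries a group the subunit intervals are wide (median SE 0.21 on the log2 scale, 0.15 with the block), and the 3 ratios could not reach a p under 0.1, or 0.25 when paired.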
